A study of Mus musculus with 6 samples.

Results

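The ubiquitin-specific proteases, the Usp family, were followed in B16F10.9 mouse melanoma cells with and without interferon-gamma (IFN-gamma). Members were chosen by gene symbol: protein-coding genes named Usp with a number and optional small letters, without Usp18. The rule found 55 genes among the 39179 of the deposited gene sheet. The family was put forward with the FPKM values of this same contrast already known, so its counts of rises and falls describe these cells and do not test the choice. The symbol rule also takes in Usp6nl, which encodes a GTPase-activating protein for Rab proteins and no protease.

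Ubiquitin is a small protein that is joined to other proteins to mark them for the proteasome, for sorting at membranes or for signalling. Usp proteins are the largest family of enzymes that take ubiquitin off again, through a cysteine in their active site. In interferon biology the family is known for Usp18, which removes the ubiquitin-like protein Isg15 and restrains type I interferon receptors. The other members act in the cell cycle, DNA repair, chromatin, receptor recycling, mitochondria and innate immune signalling.

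RNA was sequenced from 3 libraries of cells exposed to recombinant murine IFN-gamma for 24 h, at 50 µg/ml as labelled, and from 3 libraries of untreated cells. B16F10.9 cells make pigment and derive from a melanoma of a C57BL/6 mouse, and the 2 groups differ in the labels only by the cytokine. Nothing in the labels says that the libraries of a group came from independent experiments, and the spread that the authors' test used may be technical. Expression is given as FPKM, fragments per kilobase of transcript scaled to the library's total, which allows levels to be compared between genes.

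Each gene had 1 FPKM value per group, set by the authors from 3 libraries, so values per library and their spread are not given, and the read depth is unknown. Rises and falls are those with q under 0.05 in the authors' deposited table. In bulk RNA, a change in some cells cannot be told apart from a smaller one in all cells. All 7 listed melanocyte genes were expressed, and 4 were called higher, 1 lower and 2 not called. The lowest was Mitf, at 104.8 FPKM in IFN-gamma cells and 78.7 FPKM in untreated cells. Sox10 had the largest called ratio, at 195 FPKM in IFN-gamma cells and 112 FPKM in untreated cells. Tyr was the gene called lower, at 107 FPKM in IFN-gamma cells and 142 FPKM in untreated cells. Of 11 listed markers of leukocytes, fibroblasts and keratinocytes 10 were in the sheet, and none stood above 1 FPKM. The highest in IFN-gamma cells was Col1a1, at 0.135 FPKM in IFN-gamma cells and 0.197 FPKM in untreated cells, and the highest in untreated cells was Col1a2, at 0.131 FPKM in IFN-gamma cells and 0.709 FPKM in untreated cells. Col1a2, Pdgfra and Itgam were called lower. Of the 10 markers, 4 were listed at 0 in IFN-gamma cells and none in untreated cells. The interferon target Gbp2 stood at 2112 FPKM in IFN-gamma cells and 1.40 FPKM in untreated cells.

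Most expressed Usp genes stood higher under IFN-gamma, by modest amounts. Of the 55 members 44 were tested by the authors, and 22 rose, 4 fell and 18 were not called. Over all 17021 tested genes, 23.4% were called higher and 20.9% lower, and over the 13174 tested protein-coding genes 28.7% were called higher and 24.8% lower. Since the members were proposed from this contrast, nothing is read from that comparison. The median log2 ratio was 0.49 over the tested members and 0.04 over all tested genes. Of the 18 members without a call, 16 had the higher FPKM in IFN-gamma cells, a share not counted over all genes without a call. The ratios of 10 of the 18 changed sign when the median for their transcript length was taken off, as set out further on. The changes were small beside that of Usp18, which stood at 72.2 FPKM in IFN-gamma cells and 0.198 FPKM in untreated cells, a 364-fold rise. Of the 22 rises 5 reached 2-fold: Usp25, Usp11, Usp2, Usp8 and Usp27x.

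**Figure D1:**
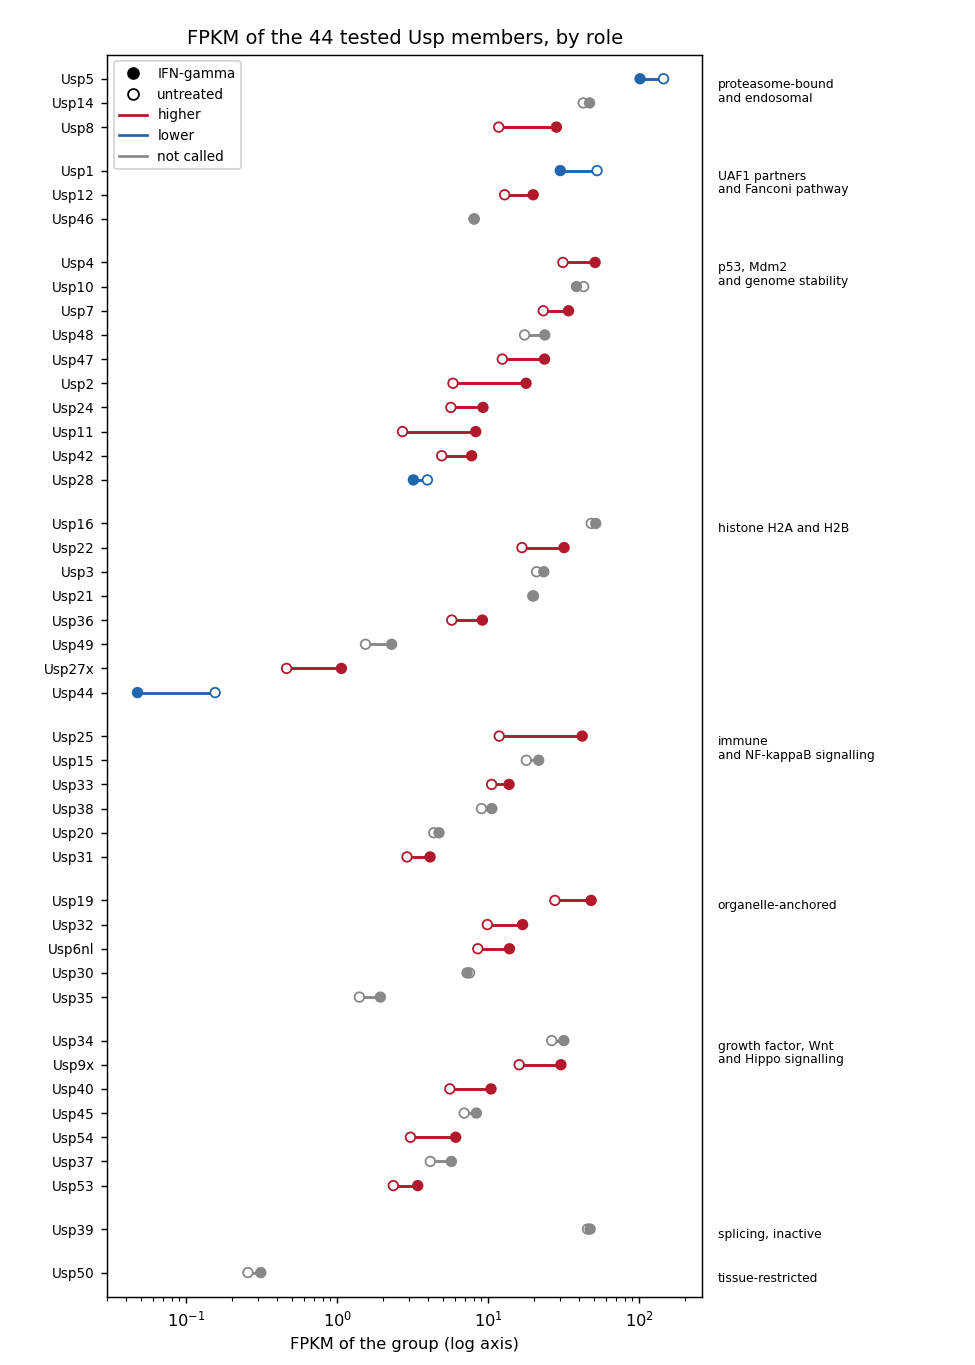
FPKM per group (log axis) of the 44 tested members, filled points for IFN-gamma cells and open points for untreated cells, 1 value per group, coloured by call in the authors' deposited table (q under 0.05) and grouped by role. The longest rising lines belong to Usp25, Usp11 and Usp2, while Usp5, the highest member in both groups, is lower in IFN-gamma cells.

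Summed over the family, FPKM reached 918 in IFN-gamma cells and 757 in untreated cells, a ratio of 1.21. Usp5 was the highest member in both groups and held 11.02% of the summed FPKM in IFN-gamma cells and 19.1% in untreated cells. After Usp5, the highest members were Usp16, Usp4 and Usp19 in IFN-gamma cells, and Usp1, Usp16 and Usp39 in untreated cells. The number of members at 10 FPKM or more was 26 in IFN-gamma cells and 21 in untreated cells. Over tested protein-coding genes the median FPKM was 10.97 in IFN-gamma cells and 9.44 in untreated cells. Over all tested genes it was 6.63 in IFN-gamma cells and 5.57 in untreated cells. The sum and the number at 10 FPKM or more were not taken over all genes. Without a spread between libraries, neighbours in the order of members by FPKM cannot be separated.

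The largest rise was that of Usp25, a protease with roles in Toll-like receptor and interferon signalling through TRAF proteins. Usp25 stood at 41.8 FPKM in IFN-gamma cells and 11.8 FPKM in untreated cells, a 3.54-fold rise the authors' deposited table giving q = 0.000187. This is the smallest q in that table, shared by 14 of the 22 rises and by 1 fall, that of Usp1, so it does not rank them. Usp25 lies on the plus strand of chromosome 16, from 77013706 to 77116780 (GRCm38). The rest of the immune and NF-kappaB group moved less. Usp33, a close relative of Usp20 that acts on membrane receptors, rose to 13.7 FPKM in IFN-gamma cells, against 10.52 FPKM in untreated cells. Usp31, linked to NF-kappaB signalling, rose to 4.12 FPKM in IFN-gamma cells, against 2.90 FPKM in untreated cells, a log2 ratio of 0.51. This ratio was below the median of 0.65 for tested genes of like transcript length, as set out further on. Usp15, a regulator of TGF-beta and RIG-I signalling, stood at 21.6 FPKM in IFN-gamma cells and 17.9 FPKM in untreated cells, just short of a call q being 0.0529 in the authors' deposited table. The remaining members were not called: Usp38 stood at 10.55 FPKM in IFN-gamma cells and 9.01 FPKM in untreated cells, and Usp20 at 4.72 FPKM in IFN-gamma cells and 4.36 FPKM in untreated cells. In all, 3 of 6 members of this group rose and none fell.

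The p53, Mdm2 and genome stability group, the largest of the role groups, held the most rises, 7 of 10 members. It had 1 fall and 2 members without a call. Each member was placed in 1 role group only, so the counts by group depend on that placing. For this and the other role groups, the share over tested protein-coding genes was 28.7% called higher and 24.8% lower. In the top length quintile of all tested genes, set out further on, it was 47.9% higher and 11.04% lower. Differences between role groups were not tested. Usp11, which acts in homologous recombination, rose 3.06-fold (chromosome X, 20703906 to 20720539, plus strand) and stood at 8.26 FPKM in IFN-gamma cells and 2.70 FPKM in untreated cells. Usp2, a protease of Mdm2 and cyclin D1 with circadian expression, rose 3.05-fold (chromosome 9, 44067021 to 44095627, plus strand) and stood at 17.8 FPKM in IFN-gamma cells and 5.84 FPKM in untreated cells. Usp2 shares its locus in the deposited sheet with 5 other genes, among them Mfrp and Rnf26, so its value depends on how fragments were assigned there. Usp47, which stabilises DNA polymerase beta, stood at 23.6 FPKM in IFN-gamma cells and 12.4 FPKM in untreated cells. Usp4, a close paralogue of Usp11 and Usp15, stood at 51.0 FPKM in IFN-gamma cells and 31.2 FPKM in untreated cells. Both rose, as did the p53 protease Usp42, at 7.76 FPKM in IFN-gamma cells and 4.91 FPKM in untreated cells.

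Usp7, the protease best known for stabilising Mdm2 and p53, rose 1.47-fold and stood at 34.0 FPKM in IFN-gamma cells and 23.1 FPKM in untreated cells. Usp24, a very large family member, rose to 9.22 FPKM in IFN-gamma cells, against 5.65 FPKM in untreated cells. Its log2 ratio of 0.71 differed by 0.0065 from the median for genes of like transcript length. Usp28, which stabilises Myc and binds 53BP1, fell to 3.19 FPKM in IFN-gamma cells, against 3.95 FPKM in untreated cells, q being 0.0365 in the authors' deposited table. It was the family's call nearest to the threshold. Usp48, which acts on nuclear RelA, stood at 23.7 FPKM in IFN-gamma cells and 17.4 FPKM in untreated cells and was not called (q = 0.0641 in the authors' deposited table). Usp10, a p53 protease bound by the stress granule protein G3bp1, stood at 38.4 FPKM in IFN-gamma cells and 42.8 FPKM in untreated cells, without a call. Its deposited locus spans 4.44 Mb of chromosome 8 and holds 182 other genes.

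In the proteasome and endosome group the members went apart. Usp8, which rescues receptors from lysosomal breakdown at endosomes, rose 2.41-fold (chromosome 2, 126707328 to 126759297, plus strand) and stood at 28.2 FPKM in IFN-gamma cells and 11.7 FPKM in untreated cells. Usp5 (chromosome 6, 124815019 to 124829484, minus strand), which takes apart free ubiquitin chains, fell to 101 FPKM in IFN-gamma cells, against 145 FPKM in untreated cells (q = 0.0184 in the authors' deposited table). Usp14, which trims ubiquitin chains at the proteasome, stood at 46.8 FPKM in IFN-gamma cells and 42.5 FPKM in untreated cells, without a call. Usp13, the relative of Usp5, stood at 0.0267 FPKM in IFN-gamma cells and 0.0118 FPKM in untreated cells and was not tested. Usp8 shares its locus with Gm10774 and Usp50, which stood at 0.311 FPKM in IFN-gamma cells and 0.256 FPKM in untreated cells and was not called.

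The partners of the cofactor Uaf1, encoded by Wdr48, also differed among themselves. Usp1 (chromosome 4, 98923810 to 98935543, plus strand), which removes ubiquitin from Fancd2 and Pcna after DNA damage, fell to 30.0 FPKM in IFN-gamma cells, against 52.5 FPKM in untreated cells (q = 0.000187 in the authors' deposited table). This was the largest fall among members above 1 FPKM, a log2 ratio of -0.81. It ranked second in the family in untreated cells. Usp12 rose to 19.8 FPKM in IFN-gamma cells, against 12.8 FPKM in untreated cells, a 1.54-fold rise. Usp46, the near relative of Usp12, stood at 8.06 FPKM in both groups. Of the shared partners, Wdr48 stood at 23.7 FPKM in IFN-gamma cells and 22.5 FPKM in untreated cells, without a call. The Usp1 substrates both fell: Pcna stood at 140 FPKM in IFN-gamma cells and 339.8 FPKM in untreated cells, and Fancd2 at 9.60 FPKM in IFN-gamma cells and 12.8 FPKM in untreated cells. Wdr48 and Fancd2 share their deposited loci with other genes. Over the 14 tested cofactors and substrates of Usp proteins, 4 rose, 4 fell and 6 were not called. Over tested protein-coding genes 28.7% were called higher and 24.8% lower, and the difference was not tested.

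Among the proteases of histones H2A and H2B, 3 of 9 members rose and 1 fell. Usp22, the ubiquitin protease of the SAGA transcription complex, rose 1.901-fold and stood at 31.8 FPKM in IFN-gamma cells and 16.7 FPKM in untreated cells. Usp27x, which shares the cofactors of Usp22, rose 2.31-fold at a low level, with 1.07 FPKM in IFN-gamma cells and 0.462 FPKM in untreated cells. Usp51, the remaining member of that trio, was not tested and stood at 0.0152 FPKM in IFN-gamma cells and 0.0873 FPKM in untreated cells. Of the SAGA cofactors, Atxn7l1 had the largest ratio of the cofactor list and rose to 10.1 FPKM in IFN-gamma cells, against 3.69 FPKM in untreated cells. Its relative Atxn7l2 was not called, at 2.18 FPKM in IFN-gamma cells and 2.58 FPKM in untreated cells. Atxn7 rose to 4.31 FPKM in IFN-gamma cells, against 1.64 FPKM in untreated cells, and Atxn7l3 to 27.4 FPKM in IFN-gamma cells, against 21.3 FPKM in untreated cells. Eny2, the small subunit of the same module, fell to 32.2 FPKM in IFN-gamma cells, against 65.3 FPKM in untreated cells. Atxn7l1 and Eny2 share their deposited loci with other genes.

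Usp36, a nucleolar protease, rose to 9.13 FPKM in IFN-gamma cells, against 5.73 FPKM in untreated cells. Usp44, linked to histone H2B and the mitotic checkpoint, was called lower at very low levels, 0.0476 FPKM in IFN-gamma cells and 0.155 FPKM in untreated cells. The H2A proteases Usp16, Usp21 and Usp3 were not called. Usp16 stood at 51.5 FPKM in IFN-gamma cells and 48.0 FPKM in untreated cells. Usp21 stood at 19.9 FPKM in IFN-gamma cells and 19.7 FPKM in untreated cells, and Usp3 at 23.3 FPKM in IFN-gamma cells and 20.9 FPKM in untreated cells. Usp49, at 2.29 FPKM in IFN-gamma cells and 1.54 FPKM in untreated cells, was not called either, and 9 other genes share its locus.

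Of the members tied to organelles, 3 of 5 rose and none fell. Usp19, anchored in the endoplasmic reticulum, rose to 48.0 FPKM in IFN-gamma cells, against 27.6 FPKM in untreated cells. Usp32, found at Golgi and endosomal membranes, rose to 16.9 FPKM in IFN-gamma cells, against 9.86 FPKM in untreated cells. The Rab regulator Usp6nl rose to 13.8 FPKM in IFN-gamma cells, against 8.52 FPKM in untreated cells. The mitochondrial proteases were not called. Usp30, which opposes mitophagy, stood at 7.23 FPKM in IFN-gamma cells and 7.51 FPKM in untreated cells, and Usp35 at 1.93 FPKM in IFN-gamma cells and 1.40 FPKM in untreated cells.

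In the growth factor, Wnt and Hippo group, 4 of 8 members rose and none fell. Usp9x, a large X-linked protease that stabilises Mcl1, rose 1.89-fold and stood at 30.3 FPKM in IFN-gamma cells and 16.02 FPKM in untreated cells. Usp40 rose 1.87-fold, at 10.4 FPKM in IFN-gamma cells and 5.56 FPKM in untreated cells. The related pair Usp53 and Usp54 also rose, Usp53 to 3.41 FPKM in IFN-gamma cells, against 2.35 FPKM in untreated cells, and Usp54 to 6.08 FPKM in IFN-gamma cells, against 3.05 FPKM in untreated cells. Usp34, which acts on axin in the Wnt pathway, stood at 31.6 FPKM in IFN-gamma cells and 26.3 FPKM in untreated cells, without a call. Usp37, a protease of cyclin A, and Usp45 were not called: Usp37 stood at 5.70 FPKM in IFN-gamma cells and 4.13 FPKM in untreated cells, and Usp45 at 8.34 FPKM in IFN-gamma cells and 6.92 FPKM in untreated cells. Usp39, which lacks the catalytic residues and works in splicing, stood at 47.2 FPKM in IFN-gamma cells and 45.4 FPKM in untreated cells, without a call.

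The authors did not test 11 members, none of which stood above 0.0873 FPKM in either group. These were Usp13, Usp26, Usp29, Usp43, Usp51, Usp9y and the 5 genes Usp17la, Usp17lb, Usp17lc, Usp17ld and Usp17le. The Usp17l genes are a cluster of near-identical copies on chromosome 7, known in mouse as cytokine-inducible genes of blood cells, and fragments could be divided between them. Of these 11, 3 were listed at 0 in IFN-gamma cells and 2 in untreated cells.

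**Figure D2:**
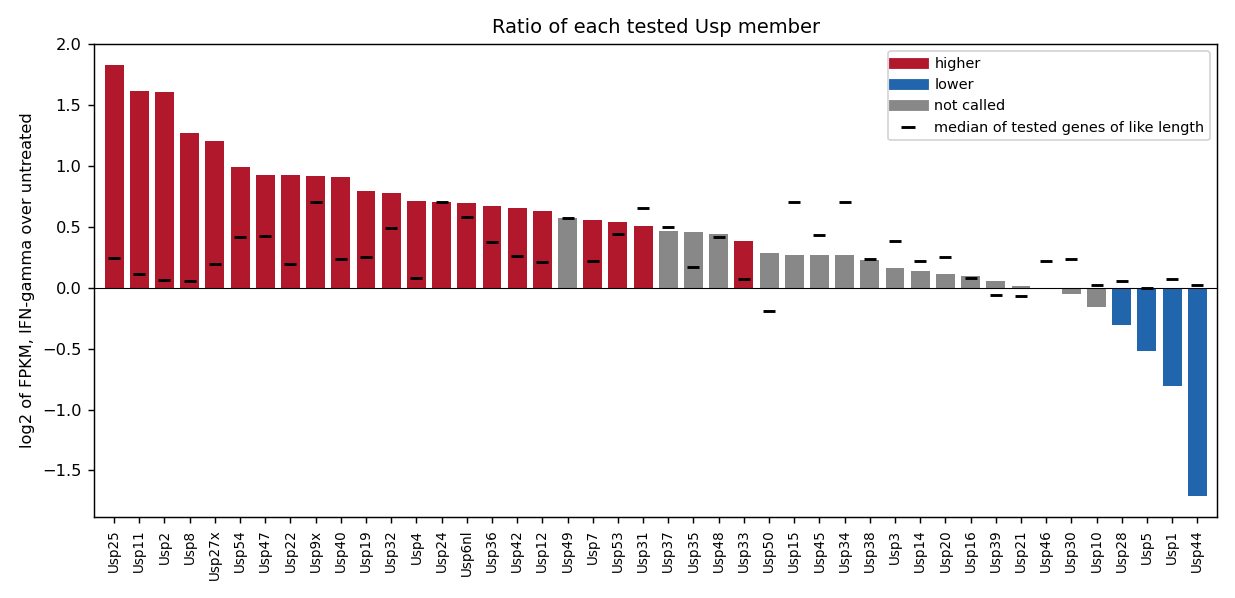
Log2 ratio of FPKM, IFN-gamma over untreated, for each of the 44 tested members in order of size, coloured by call (q under 0.05 in the authors' deposited table). The black dash is the median ratio of the 500 tested genes nearest in transcript length; the red bars of Usp25, Usp11, Usp2, Usp8 and Usp27x clear it by more than 1 log2 unit, and that of Usp31 ends below it.

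The family is made of long transcripts, and across the sheet ratios were higher for longer transcripts. The longest annotated transcript had a median of 4741.5 nt over the 44 tested members and 2753 nt over all tested genes. Over 16209 tested genes with a length, Spearman's rho between transcript length and log2 ratio was 0.29, a correlation across genes of the same libraries. Genes in the top length quintile, of 4755 nt or more, had a median log2 ratio of 0.44, with 47.9% called higher and 11.04% lower. Those in the shortest quintile had a median of -0.42. In the top quintile 13 of 21 members rose and none fell, and in the fourth quintile 9 of 18 rose and 2 fell, where 31.2% of all genes were called higher and 20.8% lower. Of the 5 members in the 3 shorter quintiles none rose and 2 fell, and over all genes of these quintiles, from the shortest up, 4.01%, 15.3% and 22.4% were called higher and 16.7%, 32.7% and 26.8% lower.

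When the median ratio of the 500 tested genes nearest in transcript length was taken off each member, the family median was 0.11, against 0.49 without that step. By this measure 27 members lay above the median for their length and 17 below it, among them 21 and 1 of the 22 rises. Of the 18 members without a call, 10 changed sign in this step, all to below the median for their length. The length-adjusted log2 ratio was 1.58 for Usp25, 1.54 for Usp2, 1.499 for Usp11, 1.21 for Usp8 and 1.01 for Usp27x. It was -0.88 for Usp1 and -0.51 for Usp5. The part of transcript length in the rises of the family was not tested. The longest transcripts were those of Usp34, with 12200 nt, and Usp9x, with 11887 nt: after this step Usp34 stood at -0.435 and Usp9x at 0.22.

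**Figure D3:**
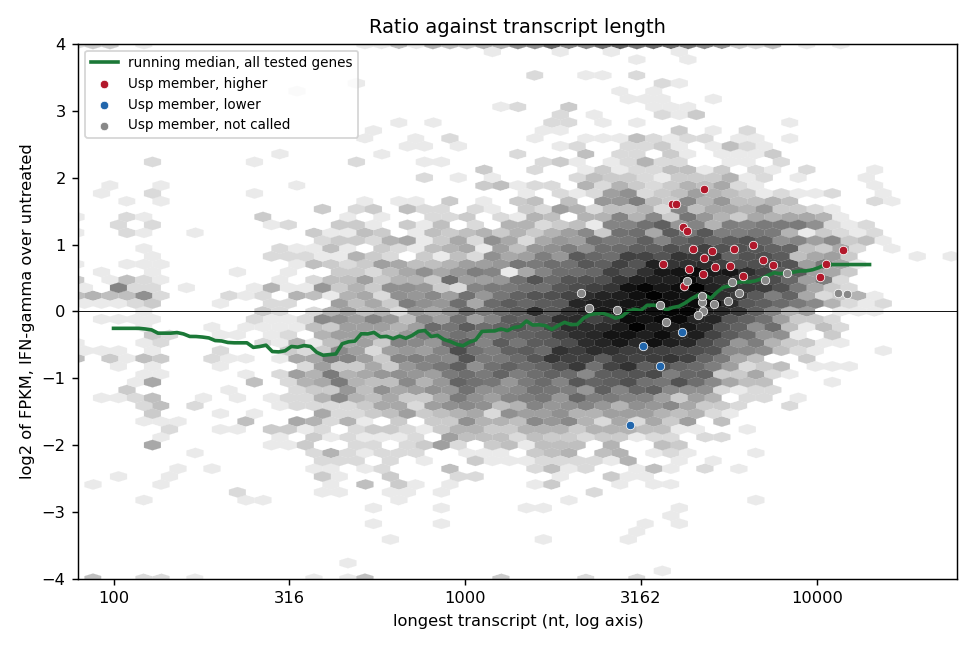
Log2 ratio of FPKM, IFN-gamma over untreated, against the longest annotated transcript (nt, log axis), with all tested genes in grey hexagons (darker for more genes, ratios beyond 4 in size drawn at the edge), their running median over 500 genes in green, and the 44 tested members as points. Most members sit at the right, where the green line is above 0, and Usp25, Usp11 and Usp2 stand well above it.

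The promoters of the members that rose were looked at for the sequences that IRF and STAT proteins, the effectors of interferon signalling, are known to bind. RefSeq windows (GRCm38.p6) of 300 bases around a gene start were found for 43 of the 55 members, among them 17 of the 22 that rose and 1 of the 4 that fell. Some of these starts lie inside the gene as annotated in GENCODE, such as those of Usp7, Usp54 and Usp30, so the outermost start was not searched there. The IRF-type motif GAAANNGAAA, searched on both strands, was in the windows of 0 of the 17 members that rose and 1 of the 16 without a call. It was in 3.99% of all 27025 genes with a window and in 5.59% of the 2842 tested protein-coding genes called higher. The STAT-type motif TTCNNNGAA, a pattern that reads the same on both strands, was in 1 of the 17 members that rose, 1 of the 16 without a call and in 9.55% of all genes with a window. Of the 9 members with a window that were not tested, 2 held the IRF-type and 4 the STAT-type motif. The former were Usp17lc and Usp17ld, and the latter Usp17la, Usp17lc, Usp17ld and Usp26. The Usp17l genes are near-identical copies, so their matches are not separate finds. A match is a description of the letters, and its absence says only that they are not in this window.

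The matches in tested members were those of Usp27x, Usp49 and Usp50, and those of Usp27x and Usp49, the higher expressed ones, are shown here with the motif in capitals. The Usp27x sequence lies at chrX:7375999-7376037 on the minus strand, and that of Usp49, the IRF-type match farther from the start, at chr17:47630529-47630568 on the plus strand.
Usp27x: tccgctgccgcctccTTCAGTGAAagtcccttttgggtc
Usp49: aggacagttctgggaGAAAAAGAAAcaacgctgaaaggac

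The windows of Usp11, Usp8 and Usp2 are shown because these members had the largest ratios after Usp25. The window of Usp25 begins within an annotated exon, at 77013819, and is not printed. Only the bases ahead of annotated exons of the gene are given, with the core GAAA on either strand (GAAA or TTTC) in capitals. The Usp11 sequence is chrX:20703659-20703905, that of Usp8 is chr2:126707078-126707327 and that of Usp2, from a start inside the gene, is chr9:44084670-44084938, all on the plus strand (GRCm38.p6).
Usp11: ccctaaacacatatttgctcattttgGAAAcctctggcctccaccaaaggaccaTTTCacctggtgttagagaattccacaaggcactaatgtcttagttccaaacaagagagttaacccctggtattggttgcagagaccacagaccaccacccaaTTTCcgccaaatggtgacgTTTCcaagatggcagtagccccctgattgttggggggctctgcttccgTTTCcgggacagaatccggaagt
Usp8: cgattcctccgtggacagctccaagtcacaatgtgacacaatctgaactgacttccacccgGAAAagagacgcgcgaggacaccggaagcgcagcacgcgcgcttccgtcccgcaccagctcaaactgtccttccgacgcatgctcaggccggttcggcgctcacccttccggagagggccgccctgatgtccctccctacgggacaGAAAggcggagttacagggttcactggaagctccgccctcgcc
Usp2: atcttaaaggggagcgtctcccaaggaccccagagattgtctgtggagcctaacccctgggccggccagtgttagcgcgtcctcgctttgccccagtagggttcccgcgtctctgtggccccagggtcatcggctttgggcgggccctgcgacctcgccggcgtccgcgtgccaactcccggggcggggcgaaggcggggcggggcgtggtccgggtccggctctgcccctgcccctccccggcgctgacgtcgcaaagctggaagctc

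The stretch of Usp11 holds 5 GAAA cores and that of Usp8 holds 2, while that of Usp2 and the whole window of Usp25 hold none. The core was present in 85.3% of the windows of tested protein-coding genes and in 61.1% of the 18 windows of members that rose. The windows of Usp25, Usp2 and Usp8 are rich in CpG, with 54, 33 and 34 CpG pairs, and that of Usp11 holds 8. The median was 20 CpG pairs over the windows of tested protein-coding genes and 30 over those of tested members.

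Genes of the other deubiquitinase families, listed by protein fold and including members that lack the catalytic site, such as Psmd7 and Cops6, were called in both directions. Of 34 tested members of these families 6 rose, 10 fell and 18 were not called, with a median log2 ratio of -0.02 and a median transcript of 3268 nt. Over all tested genes 23.4% were called higher and 20.9% lower, and over tested protein-coding genes 28.7% and 24.8%. The difference between these families and the Usp family was not tested. Cyld, Uspl1 and Pan2 have a Usp fold outside the symbol rule, and with them the counts were 7 rises and 10 falls among 37 tested genes. Of these 3, Uspl1 and Pan2 were not called. Cyld, which restrains NF-kappaB, rose to 16.6 FPKM in IFN-gamma cells, against 5.19 FPKM in untreated cells. Of 14 tested OTU enzymes 3 rose and 4 fell, and Vcpip1, which acts with the ATPase p97 in Golgi reassembly, rose to 10.6 FPKM in IFN-gamma cells, against 4.17 FPKM in untreated cells. Of 4 tested UCH enzymes 3 fell and none rose, and Uchl3 fell to 36.7 FPKM in IFN-gamma cells, against 105 FPKM in untreated cells. Of 10 tested JAMM proteins 1 rose and 2 fell, the larger fall being that of the translation factor subunit Eif3h, to 259.8 FPKM in IFN-gamma cells, against 587 FPKM in untreated cells. Josd2 was the only called member of 3 tested MJD enzymes and fell to 115 FPKM in IFN-gamma cells, against 204 FPKM in untreated cells. Of 3 tested MINDY enzymes 2 rose, Fam63b with the larger ratio, at 34.1 FPKM in IFN-gamma cells and 23.7 FPKM in untreated cells. Vcpip1, Josd2 and Fam63b share their deposited loci with other genes.

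**Figure D4:**
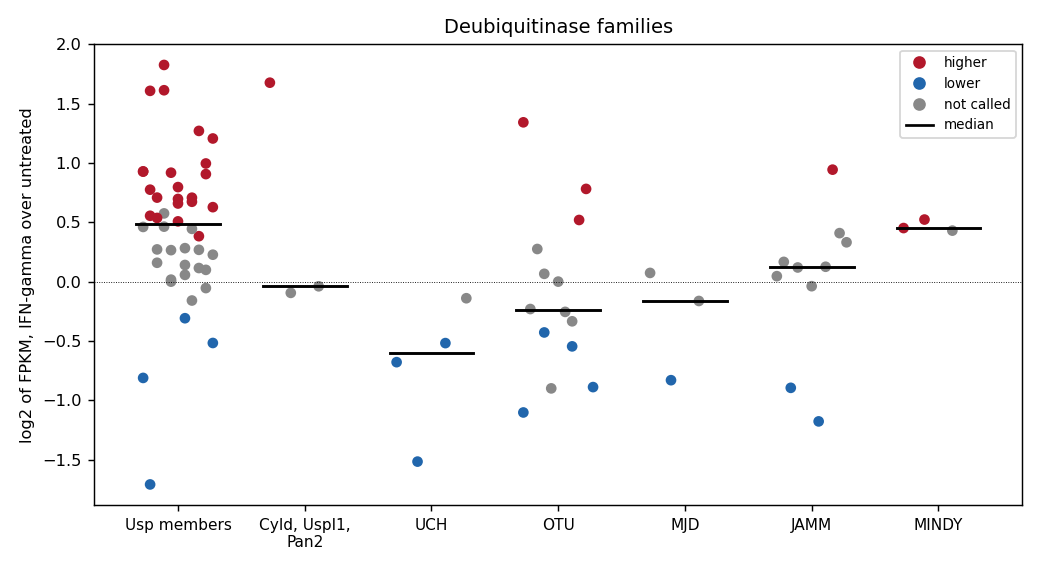
Log2 ratio of FPKM, IFN-gamma over untreated, for the tested members of the Usp family and of other deubiquitinase families, coloured by call (q under 0.05 in the authors' deposited table), with the median as a line. The Usp median lies at 0.49, and that of the UCH enzymes at -0.60.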

How the data were processed

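Libraries of B16F10.9 RNA were made with a TruSeq RNA V2 kit (Illumina), per the labels' protocols. TopHat2 2.0.11, Cufflinks 2.2.1, Cuffdiff and the build GRCm38 are named in the submitters' processing notes, without settings in what was used here. For each gene the deposited sheet holds 1 FPKM value per group, a test score, a p-value and a q-value, per the file headers. A title line speaks of infection, and the sample columns, which name B16 and IFN, were followed. The deposited q-values differ by at most 5.28e-07 from a Benjamini-Hochberg adjustment of the p-values over the 17021 genes with a completed test. Log2 ratios of IFN-gamma over untreated were recomputed from FPKM without a pseudocount. Of the 44 tested members 19 share their deposited locus with other genes, as do 48.2% of all tested genes. Among the 19 are the rising members Usp2, Usp6nl, Usp7, Usp8, Usp31, Usp32 and Usp54. Outside the family, Mitf, Pdgfra and Gbp2 share theirs as well. Values in shared loci depend on how fragments were divided.

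Named were the called members, those of at least 10 FPKM, the remaining members by role, and the called gene with the largest ratio in each other list. Members, lists and roles were chosen with earlier results of these data known, and the other cofactors, ubiquitin genes and Mitf were named after their values were seen. Transcript lengths and coordinates are those of GENCODE M21 (GRCm38), with the longest transcript per gene. The running median over 500 genes and the adjustment were checked on simulated data. Python 3.11.15, pandas 2.3.3, scipy 1.17.1 and matplotlib 3.10.9 were used. Alternatives are given in the closing section. Some genes of the ubiquitin list are not reported here.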

Additional observations from a re-analysis of the deposited data

How the results depend on the processing

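No paired analysis was possible because the sheet gives 1 value per group and none per library. For the same reason leaving out replicates was not run. A member's ratio was counted as moved where it shifted by more than 1.5-fold. The 22 rises numbered between 15 and 24 under the other planned settings and 5 where a change of at least 2-fold, chosen after seeing the data, was asked for. The 4 falls became 1 with q under 0.01, 2 with a change of at least 1.5-fold and 2 among members of at least 5 FPKM. The median log2 ratio of 0.49 became 0.11 with the length trend subtracted and 0.13 with that of protein-coding genes, chosen after seeing the data. With the length trend subtracted, 11 of the 44 tested members changed sign: Usp31, which was called, to -0.14, and 10 without a call (Usp3, Usp14, Usp15, Usp20, Usp34, Usp37, Usp38, Usp45, Usp46 and Usp49). In the same setting Usp9x, Usp15, Usp24, Usp31 and Usp34 moved by more than 1.5-fold. A pseudocount of 1 moved Usp27x and Usp44, and that of 0.1 moved Usp44. Subtracting the median of all tested genes (0.04) moved none. The other planned settings left the median log2 ratio and the summed ratio within 1.5 times their values. Depth is unknown, so no interval can be given for low levels such as those of Usp44.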

Other observations

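Among genes of ubiquitin-like conjugation, Isg15, which encodes the substrate of Usp18, stood at 489 FPKM in IFN-gamma cells and 6.37 FPKM in untreated cells and rose. Ubb, a polyubiquitin gene, rose to 430.2 FPKM in IFN-gamma cells, against 331 FPKM in untreated cells. Rps27a, which encodes ubiquitin fused to a ribosomal protein, fell to 816 FPKM in IFN-gamma cells, against 3762 FPKM in untreated cells. It shares its deposited locus with another gene or genes. Uba6, an activating enzyme of ubiquitin, rose to 6.11 FPKM in IFN-gamma cells, against 3.12 FPKM in untreated cells.

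For some members the order of the authors' q-values was not that of their test scores. Usp7 was called with a test score of 1.04 and q = 0.00588 in the authors' deposited table, and Usp15 was not called with a score of 1.28. Of the 18 tested members without a call 12 shared their locus with another gene, against 7 of the 22 that rose and 0 of the 4 that fell. The share was 43.2% over the tested members, 44.3% over tested protein-coding genes and 48.2% over all tested genes. The part of shared loci in these calls was not tested.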
